A study of Mus musculus with 2 samples.

Results

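The genes described here are the expressed processed pseudogenes of the adult mouse testis. They are genes that GENCODE M21 annotates as processed or transcribed processed pseudogenes and whose mean level over both libraries was at least 5 TPM, the deposited measure of level, which divides reads by transcript length and scales each library to the same total. Of 5532 such pseudogenes in the tables, 219 met this rule, which is 3.96%. They comprised 179 of the 5349 of the processed type and 40 of the 183 of the transcribed processed type, and the tables listed 43346 Ensembl genes in all. The members were chosen by their TPM in these same libraries, so their levels are a description with no test. Both libraries were made from whole testes of 8-week-old adult male C57BL/6J littermates, an inbred strain with no allele or treatment added, and the labels give both the same donor, so whether they come from separate animals is not settled. The libraries were stranded and paired, with 76-base reads of poly(A)+ RNA longer than 200 nucleotides from which ribosomal RNA had been depleted, and contained spike-in RNA. There was 1 group of 2 libraries, so the design holds no contrast and no p-value is given; the spread between these 2 libraries may be technical.

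A processed pseudogene, or retrocopy, arises when a messenger RNA is copied into DNA and inserted elsewhere in the genome. The copy lacks the introns and the promoter of the gene it came from, and most copies gather mutations that interrupt the reading frame. In the mammalian testis many retrocopies are transcribed in germ cells, and some serve as intact genes there. Young copies can be almost letter for letter the same as the parent transcript, which makes short reads hard to assign to the one or the other.

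The tables held 49023238 expected counts over Ensembl genes in replicate 1 and 51465728 in replicate 2. The 8 germ-cell markers examined were present, from 12.99 ± 2.64 TPM (SD, n = 2) for Sycp3, a synaptonemal complex protein, to 25658 ± 318 TPM for the spermatid chromatin protein Tnp2. The Leydig cell hormone Insl3 stood at 4733 ± 771 TPM and the Sertoli cell factor Sox9 at 5.32 ± 0.573 TPM, whereas Alb, Myh4, Gcg, Neurod1, Umod and Sftpc, markers of other organs, did not exceed 0.2 TPM on average. The tissue is a mixture of these cells, so fewer cells of a type and less RNA per cell cannot be told apart.

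The sequences below show how closely such copies resemble a coding gene. All come from the GENCODE M21 transcripts (coordinates on mm10) and run 5′ to 3′ in the sense of the transcript, with capitals marking bases that differ from the coding gene in the first line. Rps28 (chr17:33819027-33824562, minus strand) encodes a protein of the small ribosomal subunit, and its copies are Gm10443 (chr6:86334031-86334240, plus strand), the highest of the 219, and Gm16020 (chr5:134463240-134463449, plus strand). The 207 bases shown are the coding sequence without the stop codon.
Rps28: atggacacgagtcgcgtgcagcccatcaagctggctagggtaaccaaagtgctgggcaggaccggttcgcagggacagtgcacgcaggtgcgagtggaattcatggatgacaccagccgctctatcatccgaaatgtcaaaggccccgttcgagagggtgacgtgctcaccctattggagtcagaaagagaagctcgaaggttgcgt
Gm10443: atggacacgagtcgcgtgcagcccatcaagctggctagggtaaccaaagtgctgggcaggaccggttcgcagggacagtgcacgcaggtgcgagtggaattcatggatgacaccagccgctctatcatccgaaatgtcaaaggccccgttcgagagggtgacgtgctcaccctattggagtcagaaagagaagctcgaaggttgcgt
Gm16020: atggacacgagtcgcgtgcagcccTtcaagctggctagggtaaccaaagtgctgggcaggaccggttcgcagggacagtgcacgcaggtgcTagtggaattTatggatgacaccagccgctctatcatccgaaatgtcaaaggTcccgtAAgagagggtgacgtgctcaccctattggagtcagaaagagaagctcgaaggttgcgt
Gm10443 differed from Rps28 at 0 of the 207 bases, and Gm16020 at 6.

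The next set is shown because its 3 copies differed in the same direction between the libraries. Rplp0 (chr5:115559467-115563727, plus strand) encodes the stalk protein of the large ribosomal subunit, and the first 150 coding bases are given with the matching stretch of Gm8730 (chr8:102864845-102865798, minus strand), Gm9625 (chr13:67810246-67811200, plus strand) and Gm14165 (chr2:152353615-152354566, plus strand).
Rplp0: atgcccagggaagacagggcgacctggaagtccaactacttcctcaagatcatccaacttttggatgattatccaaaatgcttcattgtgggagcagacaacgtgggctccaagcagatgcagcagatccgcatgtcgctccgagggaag
Gm8730: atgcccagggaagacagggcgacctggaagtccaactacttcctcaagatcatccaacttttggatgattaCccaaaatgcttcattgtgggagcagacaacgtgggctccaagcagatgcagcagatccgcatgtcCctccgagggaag
Gm9625: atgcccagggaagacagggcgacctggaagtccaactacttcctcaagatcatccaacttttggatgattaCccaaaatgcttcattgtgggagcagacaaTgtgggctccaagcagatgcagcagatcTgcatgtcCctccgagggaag
Gm14165: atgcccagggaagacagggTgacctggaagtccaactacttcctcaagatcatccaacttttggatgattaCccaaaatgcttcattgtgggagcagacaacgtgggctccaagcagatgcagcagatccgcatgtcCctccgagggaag
The copies carried 2, 4 and 3 differences over these 150 bases.

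Rps15a (chr7:118104372-118116188, minus strand), another small-subunit protein gene, is shown over 150 coding bases with Rps15a-ps6 (chr11:6172644-6173036, minus strand) and Rps15a-ps7 (chr2:152185291-152185682, minus strand), copies that were close to absent in 1 library.
Rps15a: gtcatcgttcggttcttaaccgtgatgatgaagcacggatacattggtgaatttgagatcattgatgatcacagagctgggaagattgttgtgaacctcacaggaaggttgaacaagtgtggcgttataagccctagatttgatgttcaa
Rps15a-ps6: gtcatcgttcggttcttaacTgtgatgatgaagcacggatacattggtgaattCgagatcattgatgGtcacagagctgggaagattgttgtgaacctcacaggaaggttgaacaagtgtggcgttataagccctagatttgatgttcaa
Rps15a-ps7: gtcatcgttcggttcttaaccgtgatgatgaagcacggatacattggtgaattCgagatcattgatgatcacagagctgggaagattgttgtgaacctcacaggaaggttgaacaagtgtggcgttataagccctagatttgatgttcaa
Gapdh (chr6:125161715-125166467, minus strand), the glycolytic enzyme with the most copies among the 219, is shown over 120 coding bases with Gm6981 (chr9:52002274-52003281, minus strand).
Gapdh: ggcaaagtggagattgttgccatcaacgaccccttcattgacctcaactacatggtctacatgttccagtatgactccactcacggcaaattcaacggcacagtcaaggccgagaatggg
Gm6981: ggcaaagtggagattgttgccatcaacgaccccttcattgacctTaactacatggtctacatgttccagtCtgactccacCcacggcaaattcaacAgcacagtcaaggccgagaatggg
Gm6981 had 4 differences in this stretch, while Gm10359, Gm12671 and Gm7336 had 0 and are therefore not printed again.

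The last pair of sets shows diverged copies, whose reads could be told from those of the coding gene. Rps4l (chr6:148354656-148355598, plus strand) is set beside the X-linked Rps4x (chrX:102184941-102189394, minus strand), a small-subunit ribosomal protein gene, and Gm11780 (chr4:4528204-4528719, minus strand) beside Ptp4a2 (chr4:129811219-129850003, plus strand), a protein tyrosine phosphatase gene.
Rps4x: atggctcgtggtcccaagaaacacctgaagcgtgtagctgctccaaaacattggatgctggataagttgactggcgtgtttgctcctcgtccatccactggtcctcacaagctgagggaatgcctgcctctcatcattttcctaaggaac
Rps4l: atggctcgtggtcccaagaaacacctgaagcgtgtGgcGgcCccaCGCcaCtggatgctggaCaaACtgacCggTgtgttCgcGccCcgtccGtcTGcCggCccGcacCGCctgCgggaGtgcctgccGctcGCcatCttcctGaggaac
Ptp4a2: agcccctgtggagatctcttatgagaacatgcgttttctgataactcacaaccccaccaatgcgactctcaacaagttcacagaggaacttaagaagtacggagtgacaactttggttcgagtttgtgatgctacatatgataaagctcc
Gm11780: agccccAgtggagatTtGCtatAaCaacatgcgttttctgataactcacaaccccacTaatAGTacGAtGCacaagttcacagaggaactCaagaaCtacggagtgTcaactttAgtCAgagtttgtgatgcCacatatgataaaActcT
Over 150 bases Rps4l differed from Rps4x at 31 and Gm11780 from Ptp4a2 at 23.

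The 219 pseudogenes held a small share of the RNA measured, and the 10 highest of them held 38.8% of the members' summed TPM. They took 189026 expected counts in replicate 1, which was 0.386% of the total (95% Wilson interval 0.384 to 0.387), and 198575 in replicate 2, again 0.386% (0.384 to 0.388). These intervals cover counting error only. On the TPM scale, which divides by length, the share was 1.23% in replicate 1 and 1.17% in replicate 2. The median member stood at 14.3 TPM in replicate 1 and 15.5 TPM in replicate 2, and the median expected count was 377 and 399. A mean of 100 TPM was reached by 30 members, 125 lay under 20 TPM and 68 under 10 TPM, so most were weakly expressed. In both libraries 205 of the 219 were at or above 5 TPM. At the other end, 3700 of the 5532 processed pseudogenes had no count in either library. Just inside the threshold lay Gm5814 at 5.06 and 5.04 TPM, Gm7191 at 4.81 and 5.30, Gm13342 at 10.2 and 0, Gm8761 at 4.35 and 5.93 and BC002163 at 0 and 10.4 TPM in replicates 1 and 2. Just outside lay Gm2810 at 3.55 and 6.43, Ppp1r2-ps4 at 4.08 and 5.87, Gm7275 at 3.93 and 6.01, Gm10355 at 5.32 and 4.59 and Gm5913 at 4.66 and 5.24 TPM.

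The 3 highest members by TPM were very short transcripts. Gm10443 stood at 1558 TPM in replicate 1 and 1464 TPM in replicate 2, from 737 and 527 expected counts. Gm10774, a copy of the RNA polymerase subunit gene Polr2l, stood at 961 and 407 TPM from 308 and 92.5 counts. Gm12338, a copy of Cox7c, a subunit gene of cytochrome c oxidase, stood at 633 and 499 TPM from 72.5 and 33.9 counts. The deposited effective length, the number of start positions a fragment can take, was 11.7 for Gm10443, 7.92 for Gm10774 and 2.84 for Gm12338 in replicate 1, against a median of 431 over the 219. These 3 made up 23.0% of the members' summed TPM but 0.457% of their counts, and Gm10443 ranked 72nd by counts. An effective length under 50 was listed for 8 members and under 100 for 14. The same arithmetic kept Gm16020, the second Rps28 copy, among the members: its 3 counts in each library became 6.34 and 8.34 TPM.

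**Figure D1:**
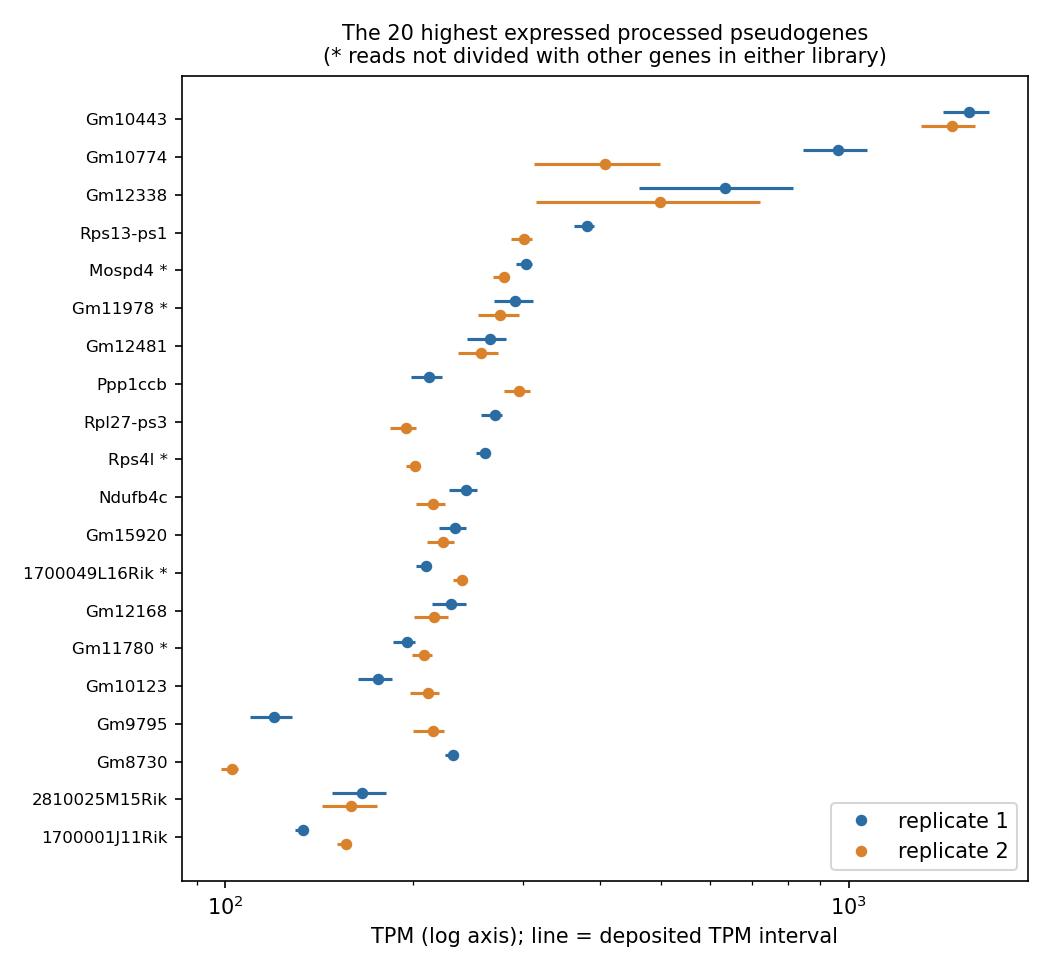
TPM on a log axis of the 20 members of highest mean TPM in replicate 1 (blue) and replicate 2 (orange), with the deposited interval of each estimate as a line. The intervals of the 3 highest, with effective lengths of 2.84 to 11.7, include the widest shown, and Gm8730, Gm9795 and Gm10774 lie far apart between the libraries.

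Members that shared sequence with other genes were far more frequent among the expressed pseudogenes than below the threshold. The closest protein-coding transcript could be found for 214 of the 219, at a median nucleotide identity of 99.1% (quartiles 94.0 and 99.8%), whereas for 5256 pseudogenes below the threshold the median was 89.8%. Identity was exactly 100% for 49 members, or 22.9%, and for 58 of those below, or 1.10%. Of each transcript's 76-base windows, the length of a read, a median of 31.8% occurred in no other annotated gene for the members and 100% for the rest. No such window existed in 50 members (22.8%), and every window was the gene's own in 32 (14.6%); below the threshold the shares were 3.67% and 54.6%. The longest open reading frame covered a median of 73.6% of the transcript in the members and 34.9% below the threshold. The level that chose the members can itself contain reads of the similar gene, and the part this plays in these differences was not tested.

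**Figure D2:**
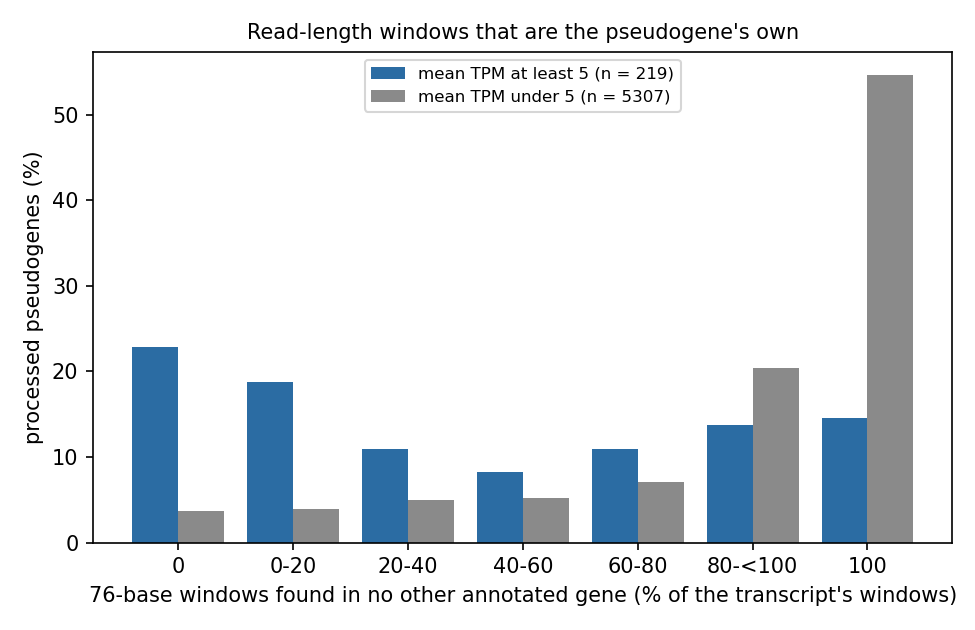
Share of processed pseudogenes (vertical axis, percent) by the share of their 76-base windows found in no other annotated gene, for the 219 members (blue) and for the 5307 pseudogenes under the threshold that are at least 76 bases long (grey). Members fill the left bars, with 22.8% at 0, while 54.7% of the others stand at 100.

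The deposited tables also show which genes had their reads divided with others. They list a posterior standard deviation (SD) of the count, and a value of 0 is taken here to mark genes whose reads were not divided with others. It was 0 in both libraries for 48 of the 219 members, or 21.9%, against 68.8% of the 10856 annotated genes with a mean of at least 5 TPM. All 48 had whole-number counts in both libraries, and 3 of the other 171 did. The 48 undivided members had a median identity of 84.1% to the closest coding gene, and 76.1 to 100% of their windows were their own. In the 171 divided members the median identity was 99.5%, the median share of own windows 18.1%, and the median posterior SD 4.74% of the count in replicate 1 and 4.46% in replicate 2. In members with no window of their own the median posterior SD was 9.65% of the count in replicate 1, and in those with every window their own it was 0. Of the transcribed type, 15 of 40 were undivided, and of the processed type 33 of 179.

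Several undivided members, whose counts rest on no division of reads with other genes, were among the highest of all. Division among the transcripts of 1 gene is not covered by this mark and can alter the effective length. For Gm11978 that length was 192.74 in replicate 1 and 211.78 in replicate 2. Mospd4 on chromosome 18, whose closest coding gene is Vapa, an endoplasmic reticulum membrane protein gene, stood at 304 TPM in replicate 1 and 280 in replicate 2 (292 ± 17.0, SD, n = 2). Vapa itself stood at 37.4 and 38.4 TPM, so the copy was 7.70-fold above it on the TPM scale. Identity between Mospd4 and Vapa was 74.4%, and all of the windows of Mospd4 were its own. Gm11978, of the transcribed type and partly similar to the mitochondrial protein gene Chchd2, stood at 291 and 276 TPM (284 ± 10.7), beside 212 and 208 TPM for Chchd2. Rps4l stood at 261 and 202 TPM (231 ± 41.6) against 35.2 and 23.6 TPM for Rps4x, at 79.7% identity. Both Rps4l and Rps4x were lower in replicate 2. 1700049L16Rik, closest to Jpt2 at 84.2% identity, stood at 210 and 240 TPM (225 ± 21.4), whereas Jpt2 stood at 3.51 and 3.66 TPM. Gm11780 stood at 195 and 209 TPM (202 ± 9.27) against 35.2 and 42.0 TPM for Ptp4a2. 1700022A21Rik, closest to Gpd1l, a glycerol-3-phosphate dehydrogenase-like gene, stood at 141 and 139 TPM (140 ± 1.26), the smallest spread of these 6. Gpd1l stood at 2.77 and 2.80 TPM, 50.4-fold below its copy.

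Some divided members were still largely distinct in sequence. 1700001J11Rik, similar to the ubiquitin ligase gene Rnf19a, stood at 134 and 156 TPM with 88.3% own windows. Gm12168, closest to Fam104a, stood at 230 and 217 TPM with 58.4% own windows, and 2810025M15Rik at 166 and 159 TPM with 100%. For 2810025M15Rik the similarity to Rpl37a, a large-subunit ribosomal protein gene, spanned 21.8% of the transcript. The remaining high members of the transcribed type were mostly not distinct: Ppp1ccb, a copy of the protein phosphatase 1 gene Ppp1cc at 99.8% identity, stood at 212 and 296 TPM with 4.31% own windows. Gm10275 (Rpl12 copy, 125 and 137 TPM), Gm7666 (copy of the mitochondrial prohibitin gene Phb, 111 and 114 TPM) and Gm15500 (Rpl5 copy, 104 and 103 TPM) had own-window shares of 6.05%, 10.2% and 0.106%. 4930448K20Rik was undivided at 56.7 and 68.5 TPM.

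Between the libraries a larger share of the members than of all annotated genes at or above 5 TPM differed by more than 2-fold. The latter include the members and were not matched to them in level or counts. On the log2(TPM + 1) scale 22 of the 219 differed by more than 2-fold, or 10.05%, against 1.46% of the 10856 annotated genes with a mean of at least 5 TPM. On log2(CPM + 1), with CPM the counts scaled to library size, where the pseudocount weighs differently on each gene, 13 of the 22 still did with TMM scaling (background 1.05%) and 13 with DESeq2 scaling (background 1.03%). Of the 22, 8 were higher in replicate 1 (background 0.967%) and 14 in replicate 2 (0.497%), so more of the members were on the side of replicate 2, whereas among all annotated genes 105 were on the side of replicate 1 and 54 on that of replicate 2. The median absolute log2 ratio was 0.24 for the members and 0.15 for the annotated genes. Among the 48 undivided members 1 exceeded 2-fold, or 2.08%, and among the 171 divided members 21 did, or 12.3%. The undivided one was Gm4804, with 121 and 318 counts and 3.76 and 9.53 TPM. By windows, 7 of the 50 members with none of their own exceeded 2-fold, 10 of the 76 with up to 50%, 5 of the 61 between 50 and 100%, and 0 of the 32 with all. For 21 of the 22 the closest coding gene was in the tables, and 0 of these coding genes differed by more than 2-fold, their largest absolute log2 ratio being 0.59. Of the 9711 protein-coding genes at or above 5 TPM, 99 did, or 1.02%, so 0 of 21 is near the share of coding genes in general. Of the 22, 9 had a mean of fewer than 100 counts. The deposited TPM intervals, whose level the files do not state, did not overlap between libraries for 73 members, or 33.3%, against 44.6% of the annotated genes, so by that measure the members did not stand out.

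Of the 22, 7 were copies of ribosomal protein genes, as were 55 of all 219 members, and 11 belonged to none of the classes described below. Gm12191, a copy of the large-subunit gene Rpl30 at 99.7% identity, stood at 6.79 TPM in replicate 1 and 195 TPM in replicate 2, a log2 ratio of 4.65, from 40.1 and 1160 counts. Its replicate 1 value was uncertain, with a posterior SD of 45.3% of the count and a deposited interval of 0.287 to 8.07 TPM. Rpl30 stood at 202 and 157 TPM, and none of the windows of Gm12191 was its own. Gm6472, an X-linked copy of Rps7, stood at 3.71 and 55.2 TPM (log2 ratio 3.58), with Rps7 at 287 and 258 TPM. The coding genes they resemble were lower in replicate 2, where both copies were higher. This was not particular to Rpl30 and Rps7: Rps28, Rps13 and Rpl27 were lower there too, whereas Rps15a and Rplp0 were higher. Gm4202, a copy of the 14-3-3 gene Ywhaz, stood at 2.40 TPM in replicate 1 and 14.3 TPM in replicate 2. Gm7488, identical to the pre-mRNA cleavage factor gene Nudt21, stood at 10.6 and 35.4 TPM. Both were higher in replicate 2. With a mean of fewer than 100 counts, Rps15a-ps6 stood at 0.30 and 14.2 TPM and Rps15a-ps7 at 0.99 and 11.8 TPM, while Rps15a stood at 969 and 1185 TPM. Both copies were thus near 0 in replicate 1 and above the threshold in replicate 2. In the other direction, among members with a mean of at least 100 counts, Gm6969, a copy of the nuclear gene Cox7a2l on chromosome 17, stood at 33.5 and 9.51 TPM (log2 ratio -1.72), and Gm10774 at 961 and 407 TPM (log2 ratio -1.24). Larger ratios on that side came from fewer counts. Gm13342, a copy of the G protein subunit gene Gng5, stood at 10.2 and 0 TPM from 4 and 0 counts (log2 ratio -3.48), and Gm4617, a copy of the prothymosin gene Ptma, at 13.3 and 2.11 TPM from 154 and 25.1 counts (log2 ratio -2.20).

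**Figure D3:**
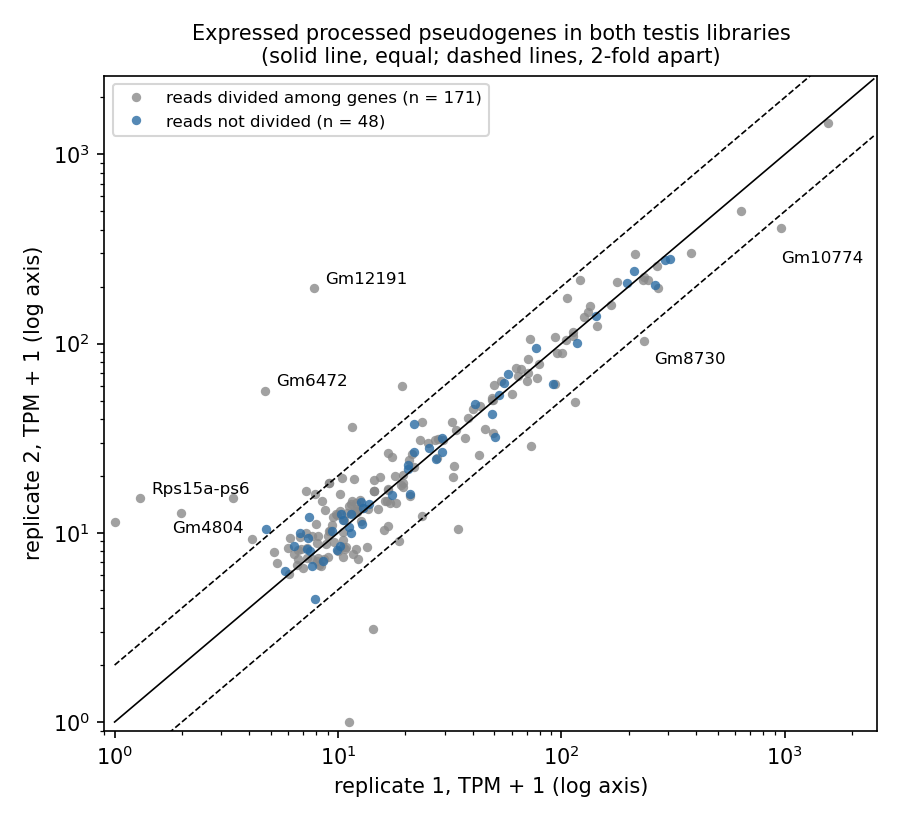
TPM + 1 of each member in replicate 1 (horizontal) and replicate 2 (vertical), both on log axes, for the 48 undivided members (blue) and the 171 divided members (grey). Beyond the dashed 2-fold lines lie 22 members, of which Gm4804 is the only blue point.

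Copies of 1 coding gene could be compared with each other. The 3 Rplp0 copies were all higher in replicate 1: Gm8730 at 232 and 103 TPM (log2 ratio -1.17), Gm9625 at 114 and 48.0 TPM (-1.23) and Gm14165 at 12.5 and 7.40 TPM (-0.68). Rplp0 itself stood at 1272 and 1299 TPM, so its own level was about the same in both libraries. Summed, the 3 copies held 358 TPM in replicate 1 and 158 TPM in replicate 2. The order of the copies was the same in both libraries, and the own-window shares of 46.8% for Gm8730, 67.4% for Gm9625 and 81.4% for Gm14165 ran opposite to it. These 3 copies share sequence and are not independent of each other.

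Gapdh had 6 copies among the members, from which 2 patterns emerged. Gm6981, with 94.2% identity and 74.4% own windows, was the highest at 112 and 109 TPM. Gm12403 at 11.8 and 10.2 TPM and Gm7191 at 4.81 and 5.30 TPM were undivided. Gm10359, Gm12671 and Gm7336 had identical values of 13.5 TPM and 435 counts in replicate 1 and 15.5 TPM and 520 counts in replicate 2. These 3 had no window of their own, and their deposited intervals in replicate 2 ran from close to 0 to about 36 TPM, with upper bounds of 35.8, 36.1 and 35.9, so their separate levels were not resolved. Gm15801 and Gm8783, 2 copies of the phosphatase gene Ptp4a1, likewise shared values of 8.14 and 17.4 TPM. The coding Gapdh stood at 344 and 243 TPM, above each of its copies.

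Ppp1r2, which encodes inhibitor-2 of protein phosphatase 1, stood at 36.5 and 33.7 TPM and had 4 copies among the members. Ppp1r2-ps4, just below the threshold at 4.08 and 5.87 TPM, is not among these 4. Ppp1r2-ps6 stood above Ppp1r2 at 48.1 and 50.3 TPM. Ppp1r2-ps7 at 24.5 and 26.9, Ppp1r2-ps9 at 20.8 and 25.7 and Ppp1r2-ps3 at 16.9 and 18.8 TPM stood below it. All 4 copies were higher in replicate 2 and Ppp1r2 was lower, by differences that stayed under 2-fold. Ppp1r2-ps7 and Ppp1r2-ps9 were X-linked and undivided, at 76.1% and 66.5% identity. Another 3 members were closest to the mitochondrial pyruvate carrier gene Mpc1, which stood at 32.6 and 36.6 TPM. The undivided Gm4984 (116 and 99.2 TPM, X-linked) and Gm13570 (90.4 and 59.8 TPM) exceeded it at about 70% identity, with values of 69.5% and 70.2%, whereas the near-identical Mpc1-ps stood at 8.64 and 7.98 TPM. The 4 Rps2 copies ranged from Rps2-ps10 at 9.83 and 7.44 TPM to Gm5070 at 48.8 and 59.1 TPM, with Gm15653 at 12.8 and 13.2 and Gm14276 at 10.4 and 8.93 TPM between them, far under the 497 and 447 TPM of Rps2. The 3 copies of Rpl29, another ribosomal protein gene, and the 3 of the histone H3.3 gene H3f3a were low in both libraries, led by 4931440P22Rik at 19.98 and 15.11 TPM and H3f3a-ps2 at 9.54 and 6.47 TPM. The others were Gm10709 at 4.17 and 6.88 and Gm4945 at 6.90 and 3.47 TPM for Rpl29, and H3f3c at 5.60 and 7.10 and Gm12657 at 3.11 and 8.32 TPM for H3f3a. Gm10358, a coding Gapdh-like gene that has no row in the tables, was closest to 4930448K20Rik, Gm14130 and Gm4804.

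**Figure D4:**
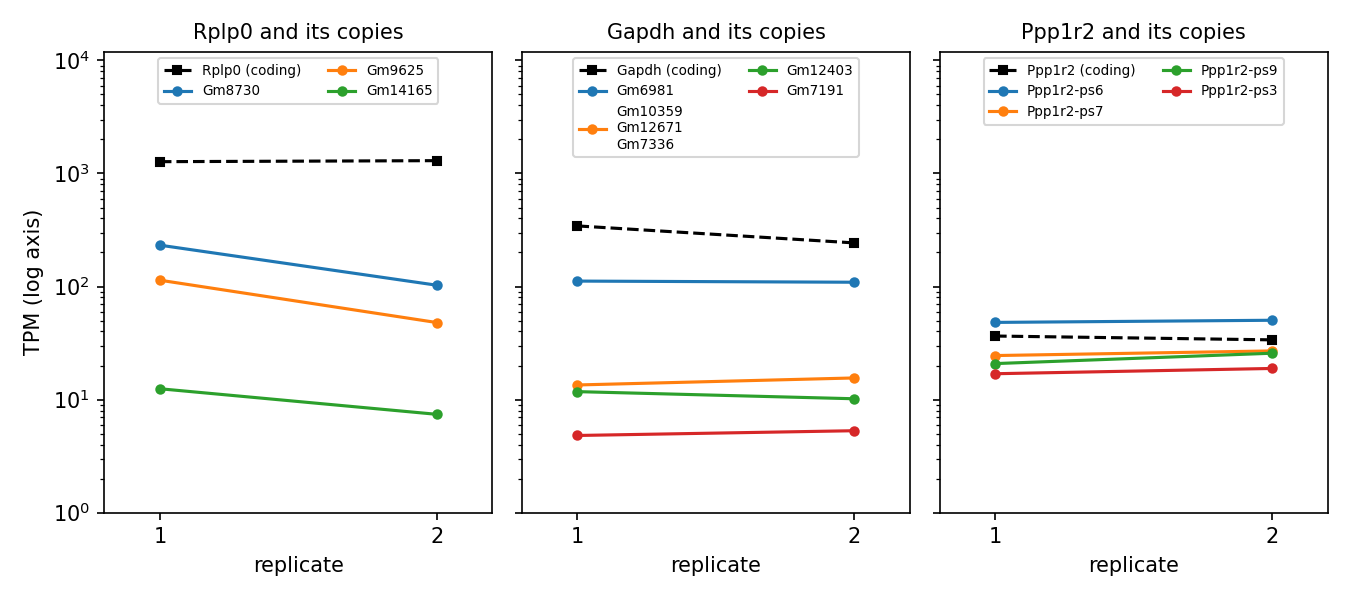
TPM on a log axis in replicates 1 and 2 for Rplp0, Gapdh and Ppp1r2 (black dashes) and the members closest to each in sequence (colours), with members of identical values on a common line. The Rplp0 copies are lower in replicate 2, at 103, 48.0 and 7.40 TPM, while Rplp0 stands at 1272 and 1299 TPM, and the 4 Ppp1r2 copies lie within 16.9 to 50.3 TPM around their coding gene.

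The 214 members with a coding match were closest to 178 different coding genes, and 16 of them aligned over less than 50% of their length. Of the 219 members, 113 fell in no named class and 5 had no match. The largest named class was the cytosolic ribosomal proteins with 55 members, whose share below the threshold was not counted. Their median was 17.5 TPM, 11 of the 55 were undivided and 7 differed by more than 2-fold between libraries. Among the other classes, 8 members were closest to genes with symbols that begin with Ub or Psm (median 27.2 TPM), 8 to glycolytic genes (14.5), 7 to mitochondrial respiratory genes (26.9), 7 to RNA-binding protein genes (13.9), 6 to histone and chromatin genes (7.88) and 4 to chaperones (14.6). Translation factor genes had 3 members (12.1), as did tubulin and actin genes (76.3). Classes were assigned by symbol. The Ub and Psm class, meant for ubiquitin and proteasome genes, thus also took in Gm7367, closest to Ubald2, at 68.9 and 62.1 TPM. Its median includes this member. The respiratory class included copies of complex I subunit genes, Ndufb4c, at 244 and 215 TPM and identical to Ndufb4, and Gm15920, a copy of Ndufa12 at 234 and 224 TPM. Other high copies in these classes were Rps13-ps1 at 380 and 302 TPM, Rpl27-ps3 at 271 and 195 TPM and Gm10123, identical to the prolyl isomerase gene Ppia, at 176 and 212 TPM. The 411 bases of Rpl27-ps3 in M21 were identical to Rpl27 and held no own window, yet Rpl27 itself stood at 27.9 and 23.4 TPM. The quantified transcript was listed at 475 bases, and its bases outside M21 were not searched. Whether these set Rpl27-ps3 apart from Rpl27 is therefore not settled. Further identical copies were Gm12481 of Serf2, at 266 and 258 TPM, and Gm9795 of Stard6, a lipid-transfer protein gene, at 120 and 215 TPM. For Gm9795 this holds for its 693 bases in M21, whereas the quantified transcript was listed at 941 bases.

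Most members stood below the coding gene they resembled, but the undivided ones were split. Of 211 members with a level for the closest coding gene, 58 were above it, and the median ratio was 0.354. Of the 44 undivided members 23 were above it (median ratio 1.33), and of the 167 divided members 35 were (0.311). The coding match was close to 0 TPM for both members with the largest ratios: AA414768 at 10.4 and 11.6 TPM against 0.08 and 0.05 for E330021D16Rik, 3000002C10Rik at 5.99 and 5.53 TPM against 0.05 and 0.04 for Gm3839, a match that covered 31.9% of it. Of the 58 members above their coding gene, 6 had a match over less than 50% of their length. Gm10774 also ranked here at 63.9-fold over Polr2l, and this value rests on its effective length of 7.92. Of the 49 members with 100% identity, 15 were above the coding gene.

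**Figure D5:**
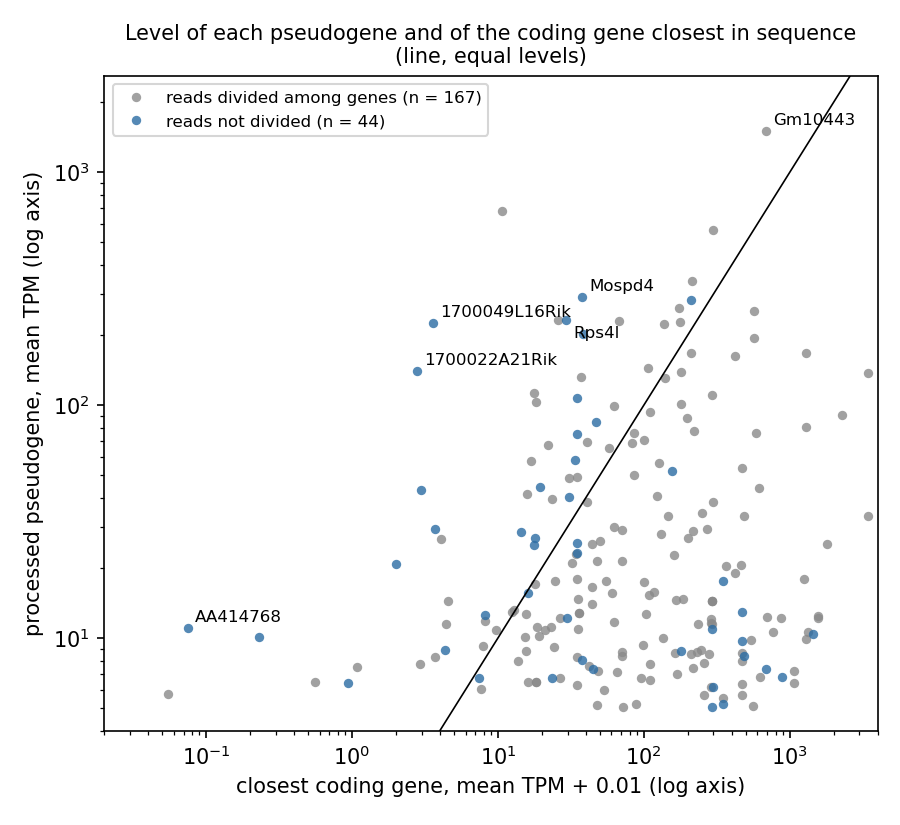
Mean TPM of each member (vertical) against mean TPM + 0.01 of the coding gene closest in sequence (horizontal), both on log axes, for 44 undivided (blue) and 167 divided (grey) members. Of these, 58 lie above the line of equal levels, among them AA414768, 1700049L16Rik and 1700022A21Rik at the left.

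By position, 200 of the members with a coding match lay on a different chromosome from it. The X chromosome held 18 members, or 8.22%, against 17.5% of the pseudogenes below the threshold. Low shares were not particular to X. Of the 947 processed pseudogenes listed there 1.90% were members, near the 2.05% on chromosome 1 and 2.21% on chromosome 4. The highest share was 9.86%, on chromosome 17. Of the 18 on X, 10 were undivided, against 38 of the 201 elsewhere, and the highest was Gm4984 with a mean of 108 TPM. Off the X chromosome, 5 members were closest to an X-linked coding gene, 2.54% of the 197 with a match, against 3.69% below the threshold. All 5 were undivided and above that gene, by 1.80-fold to 14.6-fold on the TPM scale; the group was picked after its values were seen. They were Rps4l, 1700019M22Rik at 75.9 and 93.3 TPM, Gm5334 at 39.98 and 46.64 TPM (Tspan7, a tetraspanin gene, 2.52 and 3.42), Gm6729 at 28.1 and 30.8 TPM (Rps6ka3, an S6 kinase gene, 3.76 and 3.64) and Kif4-ps at 5.34 and 7.48 TPM (Kif4, a mitotic kinesin gene, 0.90 and 0.97). The match covered 5.17% of Gm6729, which is therefore not shown to be a copy of Rps6ka3, and 86.0 to 99.9% of the other 4. These shares refer to the M21 transcripts. Gm5334 has 720 bases there, but its quantified transcript was listed at 1554 bases, and the further bases were not searched.

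Another annotated gene overlapped 39 members on the same strand (17.8%) and 44 on the opposite strand only (20.1%), and 136 (62.1%) lay outside other genes. Below the threshold these shares were 13.2%, 19.4% and 67.3%. Exons of the other gene overlapped 9 members on the same strand, where reads of the 2 genes cannot be told apart by position. They include Gm10774 within the ubiquitin peptidase gene Usp50 (mean 263 TPM), Gm7666 within Fyb (98.0 TPM) and 4930526A20Rik, at a mean of 13.2 TPM, within Tcp11, a sperm gene at 3980 TPM.

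The second deposited estimate, the posterior mean TPM, was close to the first for most members. A difference above 1.5-fold was found for 3 of 219, against 0.193% of the annotated genes. Gm10163, an Rpl21 copy with no own window, was listed at 18.1 and 16.9 TPM but at 5.68 and 5.86 by the posterior mean, and its TPM lay above the upper bounds of 13.42 and 12.97 of its own intervals. Gm28453 went the other way, from 15.7 and 9.82 TPM to 27.5 and 30.9, as did 1700010N08Rik, from 11.3 and 6.30 TPM to 23.2 and 27.4. Both are on chromosome 7, closest to short parts of Topbp1, a DNA damage response gene. Smaller differences were found for Gm12918, at 10.6 and 13.8 TPM, and Rpl38-ps2, at 8.51 and 11.2 TPM, whose posterior means stayed within 1.5-fold of these values.

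A comparison list of 12 retrocopies that are annotated as coding genes and known in testis gave a reference. Their median was 137 TPM, from Utp14b at 2.51 ± 0.24 TPM (SD, n = 2) to the sperm glycolytic enzyme Pgk2 at 442 ± 45.7 TPM. Between libraries 0 of the 12 differed by more than 2-fold, against 1.02% of the protein-coding genes at or above 5 TPM. The largest absolute log2 ratio of the 12 was 0.48, and 6 of them were undivided. The other 6 were divided only slightly, with posterior SDs of at most 1.87 counts, the value of Utp14b in replicate 2 from 620 counts. Mospd4, Gm11978, Rps4l, 1700049L16Rik and Gm11780 lay between 202 and 292 TPM, a range that also holds the coding retrocopies Rpl10l, at 239 ± 0.552 TPM, and Gk2, at 213 ± 17.3 TPM.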

How the data were processed

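Gene and transcript tables of both libraries were used on mm10 with annotation M4, per the deposited readme; no source used here names the aligner or the quantifier. The authors deposited expected counts, TPM, FPKM, posterior means, posterior SDs, TPM interval bounds and, per transcript, the percent of its gene. Gene types, coordinates and sequences came from GENCODE M21, so 209 of the members' 267 transcripts have equal length in both annotations and 3 are not in M21. Identity, the share covered by a match and own windows refer to the M21 transcripts. Pseudogene transcripts were searched with BLAST 2.17.0 (E-value 1e-05) against coding transcripts of genes that do not overlap them; on simulated copies at 1, 5, 10 and 20% divergence 49, 49, 50 and 50 of 50 sources were recovered. Ratios used log2(TPM + 1), with TMM (edgeR 4.0.16) and DESeq2 1.42.0 scaling of rounded counts as alternatives. Strand use in counting is not given. Members and lists were chosen with earlier results of these data known. Genes were named by level (20 highest, 10 highest transcribed, 10 highest with at least 50% own windows), by spread, by the threshold, by the posterior mean, by ratio to the coding gene (5 each; spread with a mean of at least 100 counts) or by families of at least 3; Rps15a-ps6, Rps15a-ps7, Gm4617, the members closest to X-linked genes, Gm15801, 4930526A20Rik, and Gm10358 were added after their values were seen. A member that the rule names is not reported here.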

Additional observations from a re-analysis of the deposited data

How the results depend on the processing

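The rule kept 205 to 278 members with the posterior mean TPM, with FPKM, or with 5 TPM in both libraries, 151 at a mean of 10 TPM and 469 at a mean of 1 TPM. From 1 library alone 215 to 231 qualified, their TPM share being 1.17 to 1.23%. By expected counts the share was 0.386%, since short transcripts weigh less. Against 22 members more than 2-fold apart in TPM, 13 were in TMM-scaled CPM, 13 in DESeq2-scaled CPM, which change the unit as well as the scaling, and 13 with a mean of at least 100 counts; the other 3 settings gave 15 to 23. The posterior mean TPM differed by more than 1.5-fold for 3 to 4 members in 1 library alone. Members above their closest coding gene numbered 58 to 59 in 1 library alone, and 23 when counted among undivided members, a choice made after seeing the data. Own windows had a median of 22.1% with 50 bases. Overlap on the same strand fell to 9 members by exons. Windows over the whole genome were not run. No paired analysis was possible because there is 1 group. Depth limits the 42 members with a mean under 100 counts.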
